A study of Arabidopsis thaliana with 12 samples.

Results

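Seedlings of the natural Arabidopsis thaliana accession Kn-0 were compared after abscisic acid (ABA) or mock treatment, with 3 libraries in each group, which are 6 of the 12 libraries of the series. Whole seedlings aged 4 days were exposed for 3 h to a mock control or to 5 µM ABA, and polyadenylated RNA was sequenced from 3 biological replicates per group. No transgene or mutant allele is named for either group, and whole seedlings pool all organs. The other 6 libraries carry the same treatments in the reference accession Col-0 and enter only where the size of the response is set beside that of Kn-0. The genes described are all 32833 rows of the Kn-0 gene table, and the splicing events are all 196149 rows of the Kn-0 splicing tables, grouped into 62 gene lists and 40 families taken from annotation.

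ABA is the hormone that plants accumulate in drying tissue and in maturing seeds. Its receptors, the PYR/PYL proteins, bind and block clade A protein phosphatases 2C (PP2C), which otherwise keep SnRK2 kinases inactive. Released SnRK2 kinases phosphorylate bZIP factors of the ABF and ABI5 group, which bind promoter elements with an ACGTG core. In young seedlings the hormone is known for slowing root and shoot growth and for inducing protective proteins and surface barriers.

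Gene-level values are log2 ratios of ABA to mock with their standard errors (SE), taken from the authors' deposited table, and a gene is said to have risen or fallen where the adjusted p of their DESeq2 test was under 0.05. Values per library are junction reads from 1 splicing event per gene, scaled by median ratios to 1000000 reads a library and given as RPM. These reads totalled 14597346 to 15285000 per library, and 57.7% of the tested genes had such an event. Across 13679 genes the fold changes of the junction reads and of the authors' deposited table had a Pearson correlation of 0.965, as a description over genes of the same libraries. Between libraries of a group, chi-square over its degrees of freedom lay between 3.21 and 6.22, which is above sampling noise. Libraries are named by their place in the splicing tables. Of 12 root markers 2 rose and 4 fell, and the sum over the 6 with an event overlapped between mock (68.2 to 80.5 RPM) and ABA (65.4 to 81.1). These 6 were WOX5 and the Casparian strip genes CASP1 to CASP5, so the sum hardly covers other root cells. All 7 green shoot markers and all 8 seed markers were detected, and 4 of each rose. Of 6 markers of the shoot meristem and stomata 3 fell, and the sum of 4 of them was 28.5 to 31.6 in mock and 20.9 to 24.3 in ABA, without overlap; the part of these cells in the results was not tested.

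ABA changed 10528 of 23710 tested genes in Kn-0, or 44.4%, with 5439 higher (22.9%) and 5089 lower (21.5%). The median log2 fold change over all tested genes was 0.00. Large changes were more often rises: 479 genes rose by at least 2 on the log2 scale and 159 fell by as much. In the junction reads, limma with Benjamini-Hochberg adjustment called 2603 of 13746 genes higher (18.9%) and 2417 lower (17.6%). With library totals in place of median ratios these became 2077 and 3094, and the median over all genes moved from -0.01 to -0.06. Of the genes called by both tests, 4697 had the same direction and 1 the opposite one. All 3 ABA libraries lay above all 3 mock libraries in 24.1% of genes and below them in 23.1%.

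**Figure D1:**
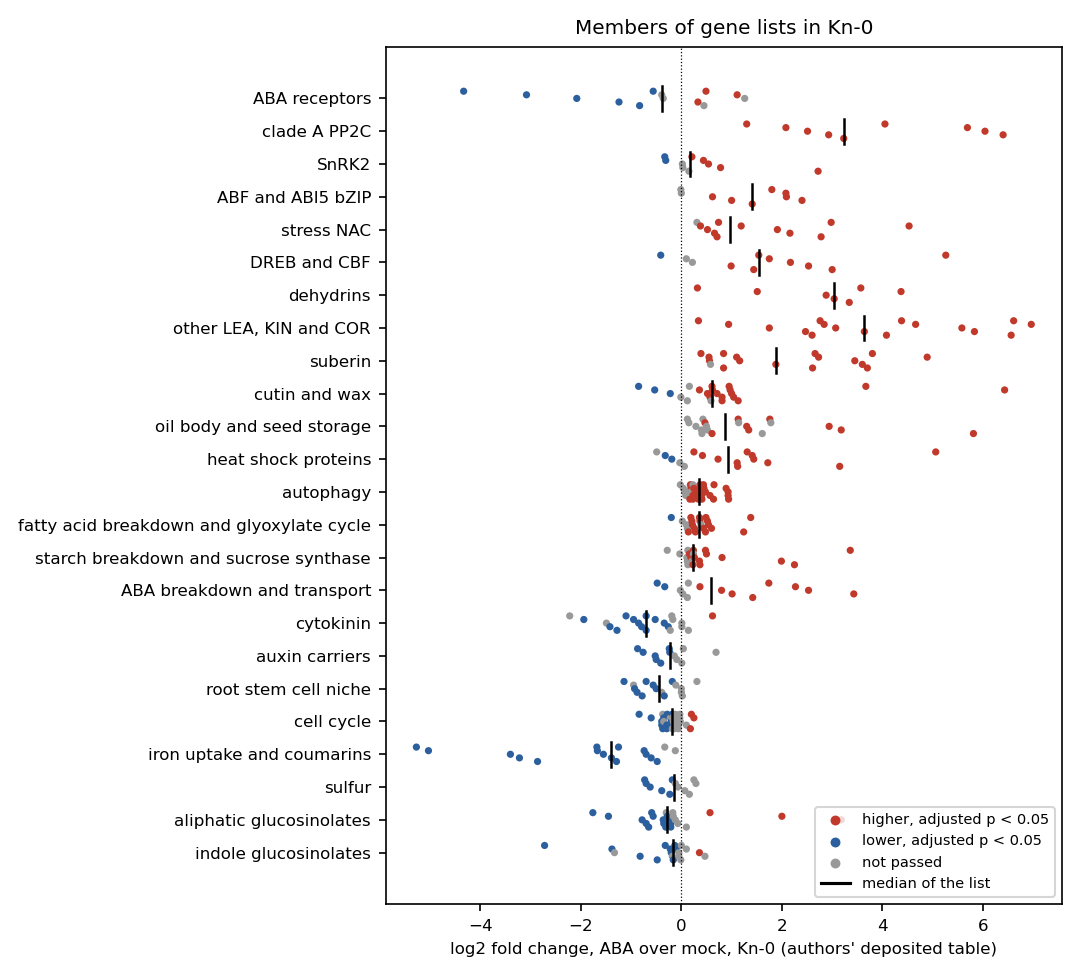
Log2 ratio of ABA to mock in Kn-0 (horizontal axis, the authors' deposited table) for the tested members of gene lists, 1 point per gene, with a bar at the median of each list. Red and blue points have an adjusted p under 0.05 and grey points do not; all 9 PP2C genes lie to the right of 0 and all 17 iron uptake genes to the left.

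At the start of the pathway, the phosphatases that block signalling rose and most of the strongly changed receptors fell. All 9 clade A PP2C genes rose in the authors' deposited table, from HAB2 (1.3, SE 0.06) to HAI3 (6.40, SE 0.17). HAI1 had 1.11, 0.919 and 0.508 junction RPM in the mock libraries and 56.8, 64.1 and 61.8 in the ABA libraries. ABI1 had 47.9, 41.5 and 45.7 in mock and 235, 263 and 257 in ABA. For each of the 7 phosphatases with junction reads, every ABA library was above every mock library. Of 13 tested receptor genes 6 fell (46.2%) and 3 rose (23.1%), beside 21.5% and 22.9% of all genes. PYL6 (-4.33, SE 0.21), PYL4 (-3.08, SE 0.09), PYL5 (-2.08, SE 0.11) and PYR1 (-1.24, SE 0.07) fell by more than 1 on the log2 scale in the authors' deposited table, PYL8 (-0.83) and PYL1 (-0.56) by less. PYL3 (1.11, SE 0.34), PYL7 (0.49) and PYL9 (0.33) rose. PYL8 had 95.1, 100 and 104 RPM in mock and 56.6, 56 and 58 in ABA, so the groups were apart.

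Among the kinases, 5 of 10 SnRK2 genes rose (50%) and 2 fell (20%), beside 22.9% and 21.5% of all genes. SNRK2.7 went furthest in the authors' deposited table (2.72, SE 0.11), with 6.87, 7.22 and 5.84 junction RPM in mock and 35.9, 49.9 and 49.7 in ABA. SNRK2.6, known as OST1 and needed for stomatal closure, rose by 0.78 (SE 0.07). Its relatives SNRK2.2 and SNRK2.3 had log2 fold changes of 0.02 and 0.15 and did not pass, and their libraries overlapped. MAPKKK18 (4.67, SE 0.15) and MAPKKK17 (2.99, SE 0.09), which head a kinase cascade induced by ABA, also rose in the authors' deposited table. Of the 13 genes listed for this cascade 6 rose (46.2%) and 3 fell (23.1%), with 2 in each direction by at least 1 on the log2 scale. None of the 3 members with junction reads was apart between groups.

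Of the 9 bZIP factors that the kinases act on, 7 rose, and AREB3 (0.00) and EEL (-0.01) did not pass. ABF3 had 32.7, 31.6 and 30.4 junction RPM in mock and 134, 138 and 137 in ABA. ABI5, known for arresting growth after germination, had 4.06, 4.66 and 3.37 in mock and 19.2, 21.1 and 21.6 in ABA. Neither gene overlapped between groups. All 4 AFP genes, whose products bind ABI5, rose, AFP1 by 3.30 (SE 0.08) in the authors' deposited table. Among other regulators, 11 of 12 stress NAC genes rose, led by NAC019 (4.53, SE 0.25), and 8 of 11 DREB and CBF genes rose while DREB2C fell (-0.41, SE 0.17). Over whole families, 36 of 79 NAC genes rose (45.6%) and 11 fell (13.9%), and 46 of 102 MYB genes rose (45.1%) and 20 fell (19.6%). Of all genes 22.9% rose and 21.5% fell. Annotated AP2/ERF factors, with 24.4% higher and 23.3% lower, and WRKY factors, with 27% and 22.2%, were near those shares. Among bHLH factors 13.8% rose and 24.1% fell. RING and U-box proteins, many of them ubiquitin ligases, had 90 of 258 genes higher (34.9%) and 25 lower (9.69%). AIRP2, a ligase known to act in ABA responses, had 3.86, 4.4 and 5.59 RPM in mock and 37.1, 43.9 and 37 in ABA.

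Among other regulator families, class I homeodomain-leucine zipper genes and heat shock factors held a few strongly raised members. Of 16 homeodomain-leucine zipper genes of class I 6 rose (37.5%) and 4 fell (25%), beside 22.9% and 21.5% of all genes. ATHB12, known to restrain growth in drought, had 6.54, 5.32 and 6.41 junction RPM in mock and 54.4, 67.9 and 54.7 in ABA, and its close relative ATHB7 rose by 3.67 (SE 0.07) in the authors' deposited table. ATHB16 fell from 62.1, 62.4 and 68.1 to 41.5, 46.3 and 43. The groups were apart for ATHB12 and ATHB16. Over all genes the ABA libraries were apart above mock in 24.1% and below in 23.1%. Of 20 heat shock factors 8 rose (40%) and 2 fell (10%), with HSFA6A from 0.785, 0.722 and 1.08 to 15.4, 16.8 and 12.8. HSFA6B rose by 4.35 (SE 0.23) and HSFA7A fell by 0.48 (SE 0.10). Of 21 WRKY genes 8 rose (38.1%) and 3 fell (14.3%). Among the latter was WRKY60, a repressor in ABA responses, which went from 12.2, 13.5 and 12.8 to 7.51, 7.46 and 7.02. Of 22 clock genes 9 rose (40.9%) and 3 fell (13.6%), all by less than 1 on the log2 scale.

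Of 21 genes of guard cells and the stomatal lineage 5 rose (23.8%) and 4 fell (19%), near the shares of all genes (22.9% and 21.5%). GORK, the channel that lets potassium out of guard cells, had 6.15, 5.18 and 5.65 junction RPM in mock and 23.2, 28.1 and 24.2 in ABA. ALMT12, an anion channel, had 7.85, 6.1 and 5.21 in mock and 13, 14.1 and 11.5 in ABA. Both were apart between groups. SPCH, which starts the lineage, fell by 0.44 (SE 0.13) in the authors' deposited table, with 3.68 to 6.61 in mock and 3.24 to 3.86 in ABA, which overlap. The summed markers of shoot meristem and stomata were lower in ABA, as given above.

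Genes of ABA breakdown and some of ABA synthesis rose. CYP707A1, CYP707A2, CYP707A3 and CYP707A4, the hydroxylases that start ABA breakdown, rose by 1.74 to 3.43 on the log2 scale in the authors' deposited table. CYP707A1 had 10.2, 9.84 and 9.4 junction RPM in mock and 108, 128 and 133 in ABA. NCED3, which makes the precursor of ABA, rose by 1.90 (SE 0.09), and 5 of 9 synthesis genes rose and 0 fell, while 4 did not pass, among them ABA2 (-0.12) and ABA4 (0.18). Of 14 genes of breakdown and transport 8 rose and 2 fell, the latter being UGT71C5 (-0.48) and the importer ABCG30 (-0.33).

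**Figure D2:**
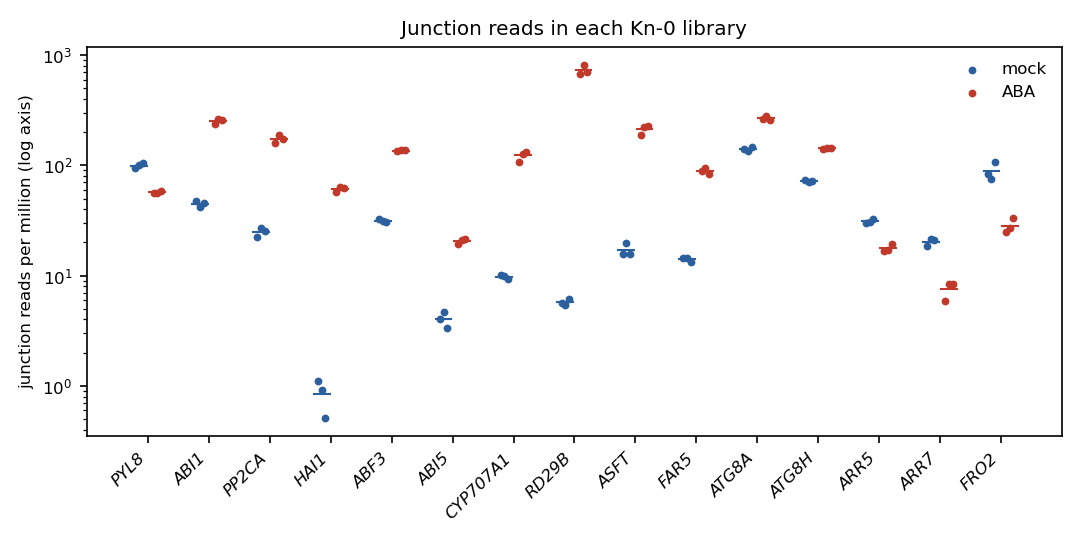
Junction RPM (vertical log axis) for 15 genes in each Kn-0 library, 3 mock libraries in blue and 3 ABA libraries in red, with group means as bars. The groups are apart for every gene shown; PYL8, ARR5, ARR7 and FRO2 are lower in ABA and the other 11 genes higher.

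Promoters of genes that rose held the ACGTG core more often than promoters of other genes. The letters were searched on both strands, as ACGTG or CACGT, in the 250 bases before each gene start of the reference TAIR10.1 from RefSeq. That sequence is Col-0, so the Kn-0 promoters may differ. The core was present in 22.9% of 27443 protein-coding genes, in 33.4% of genes that rose, in 20.3% of genes that fell and in 21.6% of those that did not pass. Among genes higher by at least 1 on the log2 scale the share was 44%, and by at least 2 it was 51.3%. Among genes lower by at least 1 it was 24.5%. The lists differed: 12 of 17 LEA, KIN and COR promoters held the core (70.6%), 6 of 9 PP2C promoters (66.7%), 4 of 17 suberin promoters (23.5%) and 2 of 17 iron uptake promoters (11.8%). Lists with small median changes held the core often too: circadian clock (68.2%), jasmonate (62.5%) and indole glucosinolates (52.6%). Their median log2 fold changes were 0.14, -0.03 and -0.16. A match describes letters and not a bound site.

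Promoter windows are printed for HAI3, AFP1, LTI30, RD29B and GPAT7 because they belong to the most strongly raised genes of lists that the results turn on; all are on the plus strand, with matches in capitals.
HAI3, a PP2C, chr2:12608425-12608674, plus strand: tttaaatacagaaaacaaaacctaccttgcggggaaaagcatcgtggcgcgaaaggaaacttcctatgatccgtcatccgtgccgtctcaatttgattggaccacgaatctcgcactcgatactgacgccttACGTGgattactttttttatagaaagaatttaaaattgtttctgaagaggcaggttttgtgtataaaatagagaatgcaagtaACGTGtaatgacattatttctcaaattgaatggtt
AFP1, a partner of ABI5, chr1:26038655-26038904, plus strand: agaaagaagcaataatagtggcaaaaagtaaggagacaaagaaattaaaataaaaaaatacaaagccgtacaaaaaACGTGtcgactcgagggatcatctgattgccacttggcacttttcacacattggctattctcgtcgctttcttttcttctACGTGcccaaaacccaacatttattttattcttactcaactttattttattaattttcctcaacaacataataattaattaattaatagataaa
LTI30, a dehydrin, chr3:18940393-18940642, plus strand: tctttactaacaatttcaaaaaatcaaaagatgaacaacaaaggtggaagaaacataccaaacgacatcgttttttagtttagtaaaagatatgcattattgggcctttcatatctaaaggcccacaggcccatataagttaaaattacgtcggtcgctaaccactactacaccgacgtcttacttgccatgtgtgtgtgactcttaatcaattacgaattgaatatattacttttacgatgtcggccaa
RD29B, a desiccation-responsive gene, chr5:21236771-21237020, plus strand: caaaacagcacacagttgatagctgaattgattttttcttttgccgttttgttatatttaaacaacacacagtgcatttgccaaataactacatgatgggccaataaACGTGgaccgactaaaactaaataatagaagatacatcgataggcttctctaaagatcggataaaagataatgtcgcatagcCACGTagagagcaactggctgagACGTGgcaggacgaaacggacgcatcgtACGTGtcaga
GPAT7, of suberin synthesis, chr5:1834797-1835046, plus strand: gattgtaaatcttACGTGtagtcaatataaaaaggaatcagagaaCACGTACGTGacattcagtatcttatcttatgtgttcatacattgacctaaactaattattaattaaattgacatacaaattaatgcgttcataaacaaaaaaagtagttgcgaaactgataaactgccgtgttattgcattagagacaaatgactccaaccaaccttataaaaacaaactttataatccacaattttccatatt
With overlapping letters counted apart, the RD29B window holds 4 matches, that of GPAT7 3, and those of HAI3 and AFP1 2 each. The LTI30 window holds 0, which says only that these letters are not in it.

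**Figure D3:**
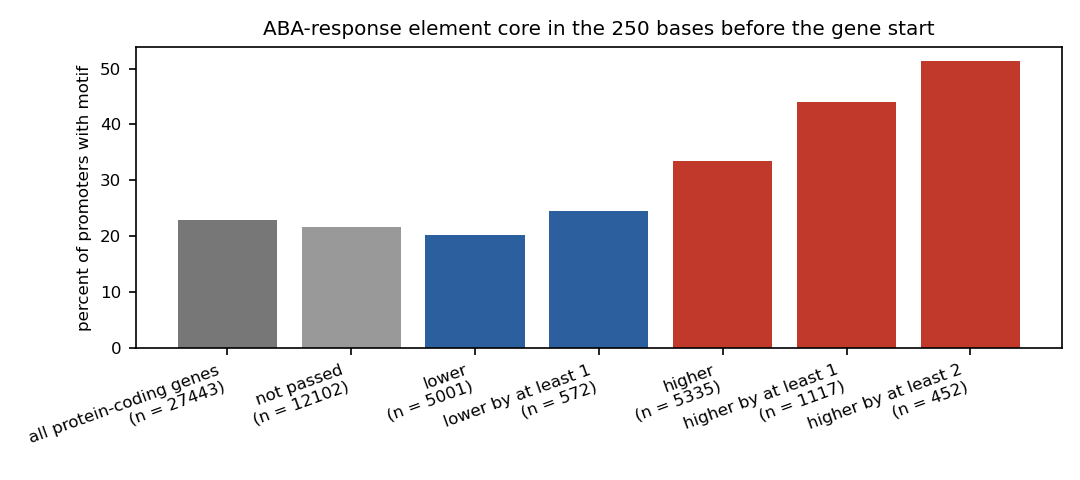
Share of promoters with the ABA-response element core in the 250 bases before the gene start (vertical axis, percent), for all protein-coding genes and for genes grouped by their change in Kn-0, with the number of promoters under each bar. The share is 51.3% for genes higher by at least 2 on the log2 scale and 20.3% for genes that fell.

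Proteins of desiccation tolerance rose together. All 7 dehydrins and all 17 other LEA, KIN and COR genes rose in the authors' deposited table, with medians of 3.04 and 3.64 on the log2 scale. These are mostly small hydrophilic proteins that accumulate in drying or chilled tissue. RD29B had 5.63, 5.45 and 6.16 junction RPM in mock and 669, 819 and 704 in ABA. LEA7 had 12.4, 10.9 and 17.9 in mock and 1256, 1490 and 1366 in ABA. KIN2 had 98.4, 94 and 98.7 in mock and 1593, 1572 and 1833 in ABA, and its close copy KIN1, with which it could share reads, also rose (6.61, SE 0.09). No library of one group reached the other for these genes. HIRD11 rose least among the dehydrins (0.32, SE 0.06), from 596, 627 and 698 to 836, 770 and 809. In the wider annotated family of 74 late embryogenesis abundant genes, 35 rose and 11 fell, the latter including AT2G41990 (-2.17, SE 0.16).

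Compatible solutes and seed proteins followed in part. GOLS2, which makes galactinol for raffinose sugars, rose by 6.32 (SE 0.17) in the authors' deposited table, and 6 of 8 galactinol and raffinose genes rose and 1 fell. DIN10, a raffinose synthase family gene, fell from 210, 217 and 251 junction RPM to 107, 108 and 99.7. The sum over the 5 genes with junction reads was lower in ABA (305, 315 and 302) than in mock (318, 321 and 350). P5CS1, the first enzyme of proline synthesis, had 72.5, 89.6 and 84.9 junction RPM in mock and 542, 656 and 594 in ABA. ERD5, which degrades proline, fell by 0.22 on the log2 scale, from 70.8, 66.5 and 67.2 to 56.4, 59.1 and 60.2, without overlap. Of 20 oil body and seed storage genes 9 rose and 0 fell, with the caleosin CLO3 at 5.81 (SE 0.24) and the oleosin OLEO2 at 2.94 (SE 0.38). The storage proteins CRA1 (1.14, SE 0.82), CRU3 (0.50, SE 0.86) and SESA1 (0.43, SE 1.36) did not pass. CRA1 ranged from 1.05 to 10.3 RPM within mock and from 5.03 to 13.3 within ABA. Small heat shock proteins were among the 11 of 16 heat shock genes that rose, HSP22.0 furthest (5.06, SE 0.25), while the abundant HSP70-1 fell from 2800, 2682 and 2445 to 2137, 2038 and 2049. In the wider annotated family of HSP20-like chaperones 10 of 33 genes rose (30.3%) and 4 fell (12.1%), beside 22.9% and 21.5% of all genes. Summed over 12 genes of this family, the libraries held 461, 445 and 454 RPM in mock and 378, 382 and 388 in ABA.

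Carbohydrate genes rose as well. Of 21 genes of starch breakdown and sucrose synthase 13 rose and 0 fell. SUS3, a sucrose synthase, had 4.64, 3.61 and 4.19 junction RPM in mock and 40.4, 46.4 and 44.1 in ABA, and SUS1 had 14.9, 12.2 and 14.4 in mock and 60.6, 66.4 and 73.9 in ABA. BAM1, a beta-amylase, rose by 1.99 (SE 0.07) in the authors' deposited table. Of 16 trehalose genes 11 rose and 1 fell, with the phosphatase TPPI from 3.47, 3.74 and 2.86 to 9.92, 11.3 and 11.8. SUS3, SUS1 and TPPI did not overlap between groups. In branched chain amino acid breakdown 7 of 12 genes rose and 1 fell, IVD, a mitochondrial dehydrogenase, from 40.9, 39.4 and 42.8 to 70, 60.9 and 72.4.

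Suberin, the polyester that seals root cell layers, had 16 of 17 genes higher and 0 lower in the authors' deposited table, with a median of 1.88 on the log2 scale. GPAT7 (4.89, SE 0.10) and GPAT5 (3.45, SE 0.07), acyltransferases of suberin synthesis, and ABCG6 (3.80, SE 0.06), a transporter, were among the leaders. ASFT, which adds ferulate, had 15.6, 19.6 and 15.7 junction RPM in mock and 189, 222 and 227 in ABA. KCS2, which elongates the fatty acids, had 10.5, 12.2 and 9.59 in mock and 145, 167 and 146 in ABA. FAR5, which makes fatty alcohols, had 14.5, 14.3 and 13.3 in mock and 89.3, 95.4 and 84.1 in ABA. Over the 8 suberin genes with junction reads the sums were 208, 214 and 199 in mock and 732, 772 and 741 in ABA, and all 8 were apart between groups. The hydroxylase CYP86A1 rose by 0.39 (SE 0.06), and the factor MYB39 (0.58, SE 0.31) did not pass. MYB41, a factor known to promote suberin synthesis, had 0.458, 0.919 and 1.02 RPM in mock and 14, 18.8 and 17.6 in ABA.

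Cuticle genes rose less evenly. Of 22 cutin and wax genes 15 rose and 3 fell. CER1, which forms alkanes, had 5.95, 5.05 and 4.13 junction RPM in mock and 59.7, 55.5 and 59.5 in ABA. CER8, a long-chain acyl-CoA synthetase, fell from 51.3, 48.3 and 47.9 to 29.7, 27.5 and 29.4. Both genes were apart between groups. The Casparian strip is the lignin barrier of the same root layer as much of the suberin. Of its 13 genes 3 rose (23.1%), CASP5 among them (0.81, SE 0.10). Another 4 fell (30.8%), among them CASP2 (-0.59, SE 0.10) and CASP4 (-0.73, SE 0.13). In so short a list these shares are not far from those of all genes, of which 22.9% rose and 21.5% fell. In bulk samples, fewer cells of a type and less RNA per cell cannot be told apart.

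Autophagy and fatty acid breakdown rose by small amounts in many genes. Of 30 autophagy genes 24 rose and 0 fell, with a median of 0.35 on the log2 scale in the authors' deposited table and none above 0.94. ATG8A, a ubiquitin-like protein that coats the autophagosome, had 142, 134 and 146 junction RPM in mock and 264, 281 and 260 in ABA. ATG8H had 72.9, 70.2 and 71.4 in mock and 140, 144 and 145 in ABA. Summed over 28 genes the mock libraries held 1276, 1277 and 1339 RPM and the ABA libraries 1795, 1798 and 1769, without overlap. Limma on the junction reads called 23 of the 28 higher, and 18 to 21 when each library was left out in turn. In fatty acid breakdown and the glyoxylate cycle 16 of 21 genes rose and PCK1 fell (-0.20, SE 0.06). ACX1, an acyl-CoA oxidase of the peroxisome, had 106, 105 and 104 in mock and 242, 241 and 258 in ABA. CSY3, a peroxisomal citrate synthase, had 43.2, 43.8 and 44.3 in mock and 112, 120 and 118 in ABA.

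Most iron uptake genes fell. Of 17 genes for iron uptake and coumarin secretion 15 fell and 0 rose, with a median of -1.39 on the log2 scale in the authors' deposited table. FRO2, the root ferric reductase, had 84.1, 75.5 and 107 junction RPM in mock and 24.8, 26.8 and 33.4 in ABA. CYP82C4, which hydroxylates a coumarin, had 29.7, 24.6 and 37.4 in mock and 2.89, 3.8 and 5.09 in ABA. AHA2, a root proton pump, had 473, 438 and 512 in mock and 264, 264 and 245 in ABA. The groups were apart for all of these. IRT1, the iron transporter, fell by 3.40 (SE 0.25), MYB72 by 5.03 (SE 1.14) and MYB10 by 3.22 (SE 0.27). FRO3 (-0.33, SE 0.28) and BGLU42 (-0.12, SE 0.06) did not pass. The regulators BHLH38 (-0.24, SE 0.39), BHLH39 (-0.74, SE 0.42), BHLH100 (-0.35, SE 0.55) and BHLH101 (-0.35, SE 0.40), which are induced by low iron, did not pass either, and BHLH100 ranged from 26.7 to 54.1 within mock and from 13.2 to 42.8 within ABA. The ferritin FER2, which stores iron, rose by 1.33 (SE 0.14).

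Of 21 cytokinin genes 12 fell (57.1%) and 1 rose (4.76%), with a median of -0.70. Over all genes 21.5% fell and 22.9% rose. ARR7, a response regulator that cytokinin induces and that dampens its signal, had 18.4, 21.5 and 21.1 junction RPM in mock and 5.86, 8.38 and 8.33 in ABA. ARR5 had 30.3, 30.6 and 32.7 in mock and 16.6, 17 and 19.4 in ABA, again apart. Among the genes of the list that passed, ARR15 had the largest fall in the authors' deposited table (-1.94, SE 0.32), the synthesis gene IPT7 fell by 1.42 (SE 0.48), and ARR16 rose (0.62, SE 0.17). Of 12 auxin carriers 7 fell and 0 rose: AUX1, an influx carrier, went from 98.6, 93.8 and 102 to 69.8, 69.2 and 64.9. Of 16 genes of the root stem cell niche 9 fell and 0 rose, among them PLT1 (-0.93, SE 0.14) and PLT2 (-0.78, SE 0.17), while WOX5 (-0.39, SE 0.26) did not pass. The receptor kinase CR4 was at 0.00 (SE 0.07). Summed over the 9 niche genes with junction reads, the libraries held 56.1, 50 and 50 in mock and 37.8, 39.8 and 40.3 in ABA, without overlap. The sum over 6 of the 12 root markers overlapped between groups, but it held only WOX5 and the Casparian strip genes CASP1 to CASP5. It is therefore no measure of the root as a whole. In the cell cycle 12 of 32 genes fell (37.5%) and 3 rose (9.38%), all by less than 1 on the log2 scale. Of 19 alpha-expansins, which loosen cell walls, 9 fell (47.4%) and 4 rose (21.1%), the latter near the share of all genes. EXPA16 rose by 2.8 (SE 0.07) in the authors' deposited table. EXPA1 had 299, 266 and 300 in mock and 93.7, 83.1 and 69.9 in ABA.

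Other hormones showed mixed lists, to be read beside the 22.9% of all genes that rose and the 21.5% that fell. Of 19 gibberellin genes 7 rose and 1 fell. GA2OX6, which inactivates gibberellin, had 7.33, 7.61 and 8.7 junction RPM in mock and 37.9, 40.1 and 47.5 in ABA, without overlap. Of 10 GASA genes, which encode gibberellin-regulated peptides, 6 fell and 2 rose, GASA3 by 3.25 (SE 0.20) in the authors' deposited table. GASA6 fell from 734, 778 and 896 to 498, 517 and 413. Of 21 ethylene genes 8 fell (38.1%) and 5 rose (23.8%). ACO1, which makes ethylene from its precursor, went from 5.1, 9.32 and 8.32 to 2.07, 2.39 and 2.68, while the synthase ACS7 rose by 1.51 (SE 0.12) in the authors' deposited table. Of 24 jasmonate genes 11 rose (45.8%) and 7 fell (29.2%), and of 12 brassinosteroid genes 4 fell (33.3%) and 1 rose (8.33%). Cell wall transglycosylases of the XTH family were split, with 12 of 27 higher and 11 lower, XTH31 going from 88.7, 95.5 and 93.5 to 46.6, 47.2 and 49.6. Root hair genes were also split, with 7 of 20 higher (35%) and 5 lower (25%).

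Genes for phosphate and sulfate were more often lower than higher. Of 15 phosphate genes 6 fell (40%) and 3 rose (20%), beside 21.5% and 22.9% of all genes. PHT1;1, a root phosphate transporter, had 26.9, 25.1 and 26.6 junction RPM in mock and 11, 10.7 and 9.78 in ABA, without overlap; it has near-identical copies with which it could share reads. Of 12 sulfur genes 6 fell and 0 rose. APR3, a reductase of sulfate assimilation, had 92.1, 101 and 84.5 in mock and 68.2, 53.4 and 53.9 in ABA, and SULTR2;2 had 7.91, 8.99 and 9.84 in mock and 4.34, 4.65 and 3.99 in ABA.

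Genes of nitrogen and of glucosinolate synthesis were more often lower than higher. Of 21 nitrate and nitrogen genes 10 fell (47.6%) and 5 rose (23.8%), beside 21.5% and 22.9% of all genes. GLN1;2, a cytosolic glutamine synthetase, had 688, 643 and 650 junction RPM in mock and 323, 309 and 304 in ABA, without overlap, and the ammonium transporter AMT1;3 fell by 2.06 (SE 0.10) in the authors' deposited table. Of 23 aliphatic glucosinolate genes 14 fell and 3 rose, with MAM3 from 46.2, 43.6 and 43.2 to 12.7, 9.08 and 13.6. FMOGS-OX4 rose from 67, 73.9 and 64.8 to 566, 608 and 600, and the sum over the 13 aliphatic genes with junction reads was higher in ABA (980, 1072 and 1081) than in mock (647, 647 and 655). Of 19 indole glucosinolate genes 10 fell and 1 rose, and of 8 thalianol and marneral cluster genes 5 fell and 1 rose. THAS1, the thalianol synthase, had 52.7, 63.2 and 44.1 in mock and 10.5, 9.5 and 6.26 in ABA. In the list of camalexin and inducible defence 3 of 15 genes rose (20%), near the share of all genes, and 1 fell (6.67%). A few defence genes were high in the first ABA library alone, and their groups overlapped. GSTF6 had 26.6, 20.5 and 27.6 in mock and 98.9, 17.7 and 17.1 in ABA. CYP81F2, which modifies indole glucosinolates, had 1.11, 1.97 and 1.59 in mock and 5.03, 0.422 and 0.275 in ABA. Genes at least 2-fold above both other libraries of the group numbered 8 of 13386 in that library and 3 to 9 in the others.

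Across annotated families, the machinery of translation was lower and the photosystems slightly higher. Of 331 ribosomal protein genes 228 fell (68.9%) and 12 rose, against 21.5% and 22.9% of all genes, with a median of -0.26 on the log2 scale in the authors' deposited table. The strongest fall was AT2G32220 (-0.86, SE 0.11), and 0 members fell by 1 or more. Summed over 253 such genes the junction RPM were 89664, 89307 and 87732 in mock and 71478, 76191 and 80049 in ABA, apart but with a spread among the ABA libraries. Limma called 188 of the 253 lower, and 157 to 190 when each library was left out. Many ribosomal proteins have near-identical copies, so the split of reads between copies is uncertain. Members that rose included AT3G14595 (1.37, SE 0.07) and AT1G53560 (1.32, SE 0.06), both annotated as L18ae family proteins. DEAD-box RNA helicases fell in 26 of 43 genes (60.5%) and translation initiation factors in 21 of 41 (51.2%). Among 45 photosystem subunits 32 rose (71.1%) and 1 fell, with a median of 0.17. Their summed reads were 69606, 65162 and 63741 in mock and 75407, 73723 and 71380 in ABA. Limma called 16 of 31 photosystem genes higher, but 4 without the second mock library and 8 with library totals, so that count rests on the library and the scaling.

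**Figure D4:**
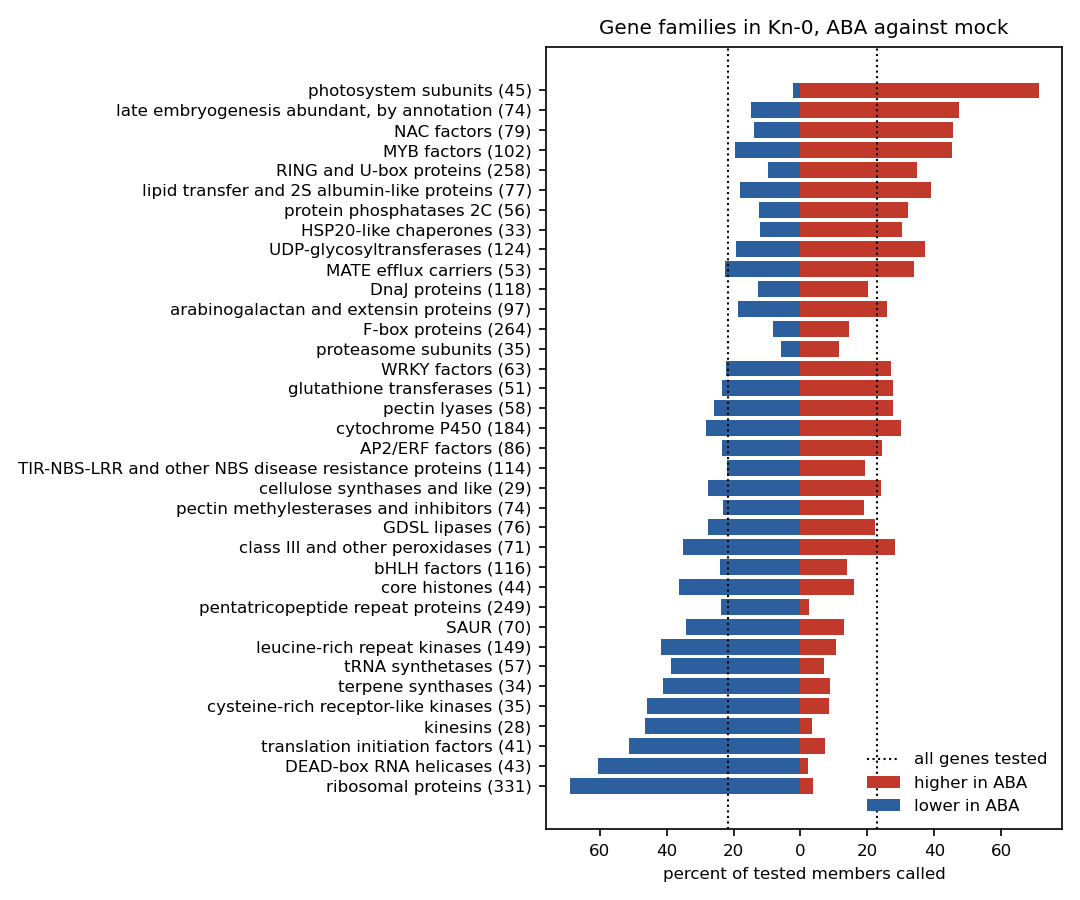
Share of tested members of annotated gene families that were higher (red, right) or lower (blue, left) in ABA in Kn-0, in percent, with the number tested in brackets and dotted lines at the shares of all genes. Ribosomal proteins reach 68.9% lower and photosystem subunits 71.1% higher.

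Receptor-like kinases were more often lower than higher. Leucine-rich repeat kinases fell in 62 of 149 genes (41.6%) and rose in 16 (10.7%). Cysteine-rich receptor-like kinases fell in 16 of 35 (45.7%) and rose in 3 (8.57%). Over all genes 21.5% fell and 22.9% rose. CRK30 fell by 3.31 (SE 0.25), CRK28 by 1.96 (SE 0.11) and CRK29 by 1.91 (SE 0.07) in the authors' deposited table, while CRK36 rose by 1.93 (SE 0.27). Pentatricopeptide repeat proteins, which process organelle RNA, fell in 59 of 249 genes (23.7%), near the share of all genes, but rose in 6 (2.41%). Of 19 aquaporin genes 12 rose and 2 fell: PIP2;1, a water channel of the plasma membrane, had 1080, 1033 and 975 junction RPM in mock and 1617, 1771 and 1588 in ABA.

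Outside the lists, and leaving out genes that have no RefSeq symbol or a mean under 50 normalized counts, the largest rises included LTP4, a lipid transfer protein (6.89, SE 0.26), TSPO, a membrane protein induced by stress (6.64, SE 0.10), the laccase LAC12 (6.30, SE 0.18) and the glucosidase BGLU24 (6.08, SE 0.11), all from the authors' deposited table. SAG29, a sugar transporter, had 2.68, 2.56 and 2.54 junction RPM in mock and 85.9, 122 and 139 in ABA. The largest falls included the lipase GLIP2 (-5.44, SE 0.43) and the proteinase CP1 (-3.81, SE 0.24), the latter from 124, 91 and 90.4 to 10.1, 6.69 and 6.54. CYP735A2, which makes trans-zeatin type cytokinins, fell by 2.73 (SE 0.19). SAG29 and CP1 did not overlap between groups.

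Splicing changed in few events. Among the 166368 events that averaged 10 or more junction reads in a library, 161 had an FDR under 0.05 in the authors' deposited rMATS table and an inclusion difference of at least 0.1, or 0.0968%. Inclusion was higher in ABA in 81 and lower in 80, and the events lay in 134 genes. Retained introns made up 97, alternative 3′ splice sites 28, skipped exons 23 and alternative 5′ splice sites 13. Libraries of the groups did not overlap in 124 events and overlapped in 37. The median of the lowest read number of an event was 19. A refit of the same inclusion and skipping reads, with a dispersion moderated by limma, could take 132 of the 161 events. It called 27 of them, in 21 genes. All 132 kept their direction, which the shared reads largely fix in advance. The moderation gave every event the same dispersion (1.46), so an event's own spread between libraries did not enter. With the larger of this common and the event's own dispersion, 20 were called. The genes with a called event were higher in 50 cases and lower in 25 in the gene table, or 56% changed, beside 50.7% of genes with a tested event. Of those 13529 genes with a tested event, 3531 were higher and 3328 lower.

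The genes of the splicing machinery changed little. Of 20 SR splicing factors 1 rose (5%) and 3 fell (15%), beside 22.9% and 21.5% of all genes. SR30 had 69.7, 66.6 and 62.4 junction RPM in mock and 92.9, 96 and 92.3 in ABA, and SR34a had 83.9, 84.3 and 85.6 in mock and 66.7, 63.9 and 70.7 in ABA, each without overlap. Of 24 other splicing and RNA-binding genes 6 fell (25%) and 2 rose (8.33%), and of 9 genes of nonsense-mediated decay 5 rose (55.6%) and 1 fell (11.1%).

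Retained introns in CEL5, ALDH7B4, GPDHC1 and ERD15 are described because they also passed the refit, a choice made after their values were seen. In CEL5, a cellulase, inclusion of intron 1 of 4, 81 bases long, was 0.314, 0.313 and 0.300 in mock and 0.731, 0.838 and 0.825 in ABA, while the gene fell by 1.12 on the log2 scale. In ALDH7B4, a stress-induced aldehyde dehydrogenase, a 5′ UTR intron of 106 bases had inclusion of 0.386, 0.416 and 0.449 in mock and 0.658, 0.682 and 0.675 in ABA, on 1206 to 3264 reads per library, and the gene rose by 1.5 on the log2 scale. GPDHC1, a dehydrogenase, had an intron of 236 bases at 0.246, 0.271 and 0.273 in mock and 0.615, 0.640 and 0.655 in ABA. In ERD15, a dehydration-induced gene, a 5′ UTR intron of 210 bases went from 0.796, 0.800 and 0.731 to 0.918, 0.964 and 0.914. The groups were apart in each.

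The splice sites of 4 of these genes, and 1 short coding intron, are shown as they stand in TAIR10.1 (Col-0), since the Kn-0 events could be matched to the reference only by gene and length, for 40 of 161 events. Capitals mark the first and last 2 bases of the intron.
CEL5 5′ splice site, chr1:8095959-8095973, plus strand: gctcacGTaagaccc
CEL5 3′ splice site, chr1:8096034-8096048, plus strand: tatgagttgcAGgtg
ALDH7B4 5′ splice site, chr1:20198953-20198967, minus strand: cattagGTgattttt
ALDH7B4 3′ splice site, chr1:20198853-20198867, minus strand: atttttgcgcAGaga
GPDHC1 5′ splice site, chr2:17326272-17326286, plus strand: cgaaagGTttgttgt
GPDHC1 3′ splice site, chr2:17326499-17326513, plus strand: cttacatgacAGaag
ERD15 5′ splice site, chr2:17269504-17269518, plus strand: gtgatgGTtgttgat
ERD15 3′ splice site, chr2:17269708-17269722, plus strand: ttgtgtgtgcAGatc
ARFD1B intron 3 of 4, chr1:495490-495562, minus strand: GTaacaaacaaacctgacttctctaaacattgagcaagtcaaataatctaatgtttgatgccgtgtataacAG
In ARFD1B, of the ADP-ribosylation factor family, this intron had inclusion of 0.497, 0.473 and 0.456 in mock and 0.721, 0.844 and 0.828 in ABA, on 48 to 63 reads per library. The GPDHC1 sites printed are those of a reference-matched intron of 233 bases, whose inclusion was 0.043, 0.041 and 0.052 in mock and 0.161, 0.174 and 0.185 in ABA.

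**Figure D5:**
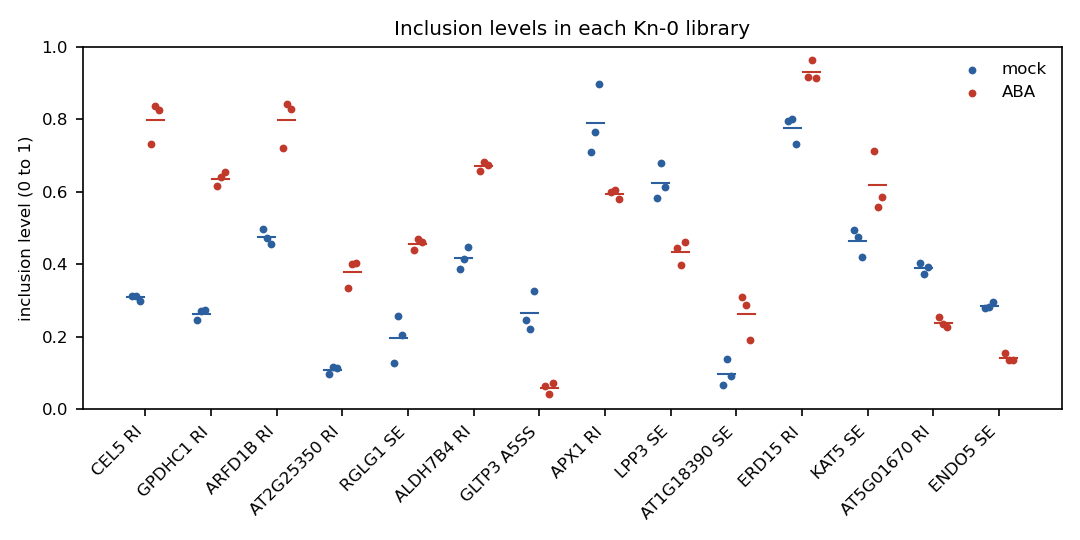
Inclusion level (vertical axis, 0 to 1) in each Kn-0 library for 14 called events that also passed the refit, 1 per gene, with mock in blue, ABA in red and group means as bars; RI is a retained intron, SE a skipped exon and A5SS an alternative 5′ splice site. CEL5 shows the largest shift, from 0.300 to 0.314 in mock to 0.731 to 0.838 in ABA. Some of the events, APX1 included, did not pass with the larger of the common and own dispersion.

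Other event types moved in both directions. In RGLG1, a ubiquitin ligase of ABA signalling, inclusion of a 58-base exon was 0.127, 0.257 and 0.204 in mock and 0.439, 0.470 and 0.463 in ABA. In ENDO5, an endonuclease, exon 3 of 10, 184 bases of coding sequence, fell from 0.279, 0.281 and 0.297 to 0.156, 0.137 and 0.135. In GLTP3, of the glycolipid transfer protein family, an alternative 5′ splice site went from 0.247, 0.223 and 0.327 to 0.065, 0.041 and 0.073. None of these overlapped between groups. Of the called events 19 lay in 15 genes of the lists. In DREB2C, a heat and drought factor, a 47-base exon rose from 0.000, 0.000 and 0.042 to 0.160, 0.214 and 0.326 on 11 to 35 reads, but was not called by the refit. In APX1, an ascorbate peroxidase, a 5′ UTR intron fell from 0.709, 0.766 and 0.897 to 0.600, 0.604 and 0.581. The refit called this event, but not with the larger of the common and own dispersion. The largest differences on few reads, such as AT3G11530 (1, 0.844 and 1 in mock against 0.519, 0.519 and 0.350 in ABA, on 7 to 18 reads), did not enter the refit or did not pass it.

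Subtracting the Col-0 from the Kn-0 log2 fold change gave 758 of 22001 genes (3.45%) with an adjusted p under 0.05, by a Wald test with Benjamini-Hochberg adjustment, with 428 more positive and 330 more negative in Kn-0. The slope of the Kn-0 on the Col-0 fold changes was 0.917. It was fitted through the origin over genes called in either accession, leaving out those that passed the test of the difference. After division by this slope 638 genes passed, 409 more positive and 229 more negative. A gene that did not pass is not shown to respond alike. FRO2 fell by less in Kn-0 (-1.67) than in Col-0 (-3.04), and CER1 rose by more (3.67 against 1.76), both from the authors' deposited tables. The tables of the accessions were normalized separately, so levels were not compared.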

How the data were processed

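Whole Kn-0 seedlings were sequenced as 3 mock and 3 ABA libraries, grouped by the labels. Per the submitters' processing notes, the tools were STAR, DESeq2 and featureCounts and the build TAIR10, without versions or roles. The gene table deposited by the authors gives a mean signal (counts divided by size factors), a log2 fold change with its standard error, a Wald score, a p-value and an adjusted p-value, per the file headers. Splicing tables deposited by the authors, made with rMATS, give junction reads and inclusion levels of 3 libraries in 1 cell, an FDR as q-value and an inclusion difference as a score, per the file headers. Commas between libraries were lost in 62.51% of events. They were restored from the inclusion levels within 0.0005, group by group, and 119 events failed. Where several splits were possible, the one with the least spread among the 3 libraries of the group was taken. This settled 75983 cases, counted per event and group. Such a choice favours a small spread within a group, and its part in the results was not tested. Columns not mapped to a sample numbered 0.

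Junction reads of the event with most reads per gene were tested with limma 3.58.1 (voom, R 4.3.3) in place of the count model first planned, because each deposited cell holds 3 libraries and the reads had to be restored; this was chosen after seeing the data. The same holds for library totals, limma-trend and the second dispersion of the refit. The scripts were tested on simulated data. Lists and members were chosen with earlier results of these data known. Named genes are, per list, up to 4 higher and 4 lower with the largest fold change, all members of lists of 14 or fewer, members that did not pass, and the 12 highest and 12 lowest other genes with a mean of at least 50; further genes were chosen after their values were seen. Kn-0 splicing positions did not match the reference build, so none is given. P-values of the gene and junction read tests measure the spread between these 3 libraries a group. Those of the refit with moderated dispersion used a dispersion common to all events, so an event's own spread did not enter. Intervals of counting error are not given.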

Additional observations from a re-analysis of the deposited data

Results flagged for a closer look

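Of 157 genes named, 26 differed in their response between the accessions at an adjusted p under 0.05 by the Wald test of the difference, which 3.45% of all genes did; many were named for a large response, so the share is not a result about them. Values are the Kn-0 minus the Col-0 log2 fold change, 14 more positive and 12 more negative in Kn-0. After the Kn-0 fold changes were divided by their slope on those of Col-0 (0.917), 12 of the 26 passed and 14 did not.

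Several genes lowered by ABA in both accessions fell by less in Kn-0. The difference was 1.37 for FRO2, 1.15 for IRT1 and 0.28 for AHA2 of iron uptake, 2.88 for MAM3, 0.52 for PHT1;1, 1.4 for PYL6, 1.08 for CYP735A2, and 0.61 for both AMT1;3 and EXPA1. Of these genes that fell by less, FRO2, MAM3 and PHT1;1 passed after division by the slope and the others did not. Some genes raised by ABA had a larger log2 fold change in Kn-0, with differences of 1.91 for CER1, 1.37 for KIN1, 1.19 for TSPO and 1.27 for CRK36. CER1, KIN1, TSPO and CRK36 passed after that division as well.

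Genes of ABA signalling and of its targets with a smaller log2 fold change in Kn-0 included HAI3 (-1.02), AFP1 (-0.90), NCED3 (-0.67), ABI5 (-0.54), P5CS1 (-0.41), ABF3 (-0.37) and SNRK2.6, listed as OST1 (-0.34). Of these only AFP1 passed after division by the slope. The other genes with a more negative difference were GASA3 (-3.12), HSP22.0 (-3.07), FMOGS-OX4 (-0.57) and ALDH7B4 (-0.38), and ATHB16 (-0.47), which fell in Kn-0. GASA3, HSP22.0 and ATHB16 passed after that division, and FMOGS-OX4 and ALDH7B4 did not.

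CYP81F2 had the widest difference of the named genes (4.15, SE 1.04), from -3.68 in Col-0 and 0.47 in Kn-0, where the gene did not pass. Its first Kn-0 ABA library held 5.03 junction RPM and the other ABA libraries 0.422 and 0.275; the part of that library in the difference was not tested.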

How the results depend on the processing

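Of the 10528 genes called, 8528 passed an adjusted p of 0.01, 10341 were called with no independent filtering and 10034 had a mean of at least 50, while 1755 also changed by at least 1 on the log2 scale. Junction reads gave 5020 calls, 4105 to 4509 without 1 library in turn, 4952 without retained introns, 4978 by limma-trend and 5171 with library totals, where the split was 2077 higher and 3094 lower. The 161 splicing events became 61 at an FDR of 0.01, 225 and 67 at differences of 0.05 and 0.2, 93 with at least 20 reads and 440 with no minimum. The refit with moderated dispersion called 30 events, 24 to 31 without 1 library in turn, and 20 with the larger dispersion; the cause was not tested. Of 658 called list members 196 changed by at least 1 on the log2 scale, by the construction of that threshold, and 633 had a mean of at least 50. The difference from Col-0 was called in 724 genes with that mean. No paired analysis was possible because the splicing cells carry no replicate numbers and the gene table holds no library values. Count models and their scalings on junction reads were not run.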
